A study of Mus musculus with 8 samples.

Results

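Small leucine-rich proteoglycans are secreted matrix proteins with a core of leucine-rich repeats, and 8 of their genes are described here, Aspn, Dcn, Bgn, Fmod, Lum, Ogn, Omd and Prelp, out of 42391 gene entries with counts in every sample. The genes were taken by their symbols, and the family was chosen by the change of Aspn, which encodes asporin, after Septin9 depletion: lower CPM in C2C12 cells and higher CPM in primary myoblasts. The changes of Aspn are therefore given as a description with no test.

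RNA was sequenced from C2C12 cells, a mouse myoblast line, and from primary myoblasts (pMb) grown from hindlimb muscle of mice aged 5 weeks. Each cell type received a non-targeting siRNA (control) or a siRNA against Septin9 (Septin9-depleted), with 2 replicates from independent experiments in each of the 4 groups and 8 samples in all. C2C12 cells were transfected with 50 nM siRNA and collected 60 h later, after 12 h in differentiation medium, whereas pMb were collected after 48 h while growing in proliferation medium. For the first 5 h the siRNA on C2C12 cells stood at 100 nM. The controls are labelled as wild type and the others as a knockdown, and cell type, medium and time cannot be told apart where the cell types are compared.

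In the extracellular matrix, decorin (Dcn), biglycan (Bgn), asporin, fibromodulin (Fmod) and lumican (Lum) bind collagen fibrils and influence their thickness and spacing. Decorin, biglycan and fibromodulin also bind TGF-beta, a growth factor that restrains myogenic differentiation, and decorin binds myostatin. Osteoglycin (Ogn, also called mimecan), osteomodulin (Omd) and Prelp belong to the same gene family. In muscle these proteins are made by fibroblasts and, in part, by myogenic cells.

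The target of the siRNA, Septin9, comes before the other genes. Its level in CPM (counts scaled to an effective library size) was 409 and 435 in control against 147 and 185 in Septin9-depleted C2C12 cells. In pMb it was 376 and 473 in control against 208 and 159 in Septin9-depleted samples, so in both cell types the depleted samples lay below the controls. Depletion was partial, to 35.9% and 42.5% of control within the pairs in C2C12 cells and to 55.4% and 33.6% in pMb. The counted reads ranged from 20898611 to 27223414 per sample. All 6 myoblast markers reached at least 1 CPM in every sample, while the 6 leukocyte markers summed to at most 2.86 CPM and the 6 endothelial markers to at most 4.77 CPM. The differentiation marker Myog was at 1020 and 401 CPM in control pMb, although these cells were in proliferation medium, and at 5.19 and 37.5 CPM in control C2C12 cells.

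Several of the genes lie side by side. On GRCm38, Aspn (chromosome 13, 49544443 to 49567565), Omd (49582462 to 49592612) and Ogn (49608015 to 49624501) follow each other on the plus strand with gaps of 14.9 kb and 15.4 kb. A further family gene, Ecm2, precedes Aspn by 11.65 kb, and all 4 lie within Cenpp, a gene for a centromere protein on the minus strand. Dcn (chromosome 10, 97479500 to 97518163) and Lum (97565501 to 97572703) are 47.34 kb apart on the plus strand. Prelp (chromosome 1, 133910304 to 133930102, minus strand) and Fmod (134037254 to 134048280, plus strand) are 107.2 kb apart, and Bgn lies on chromosome X (73483601 to 73495936, plus strand). Among the 4 genes within Cenpp, Aspn shares 7 of its 2354 exonic bases with an exon of Cenpp and the other three share 0. Whether strand was used in counting is not given in the sources used here, so reads from unspliced Cenpp RNA over the exons of these genes cannot be told apart from their own.

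The 250 bases before the start of 4 genes are printed because Aspn, Omd and Ogn are neighbours with different changes and because Prelp had the lowest adjusted p among the genes tested here after depletion in C2C12 cells. The sequences are those of RefSeq for GRCm38.p6, which matched 6 of the 8 genes, and run 5′ to 3′ on the strand of the gene. Capitals mark matches, on either strand, to the TATA box TATAAA and to the E-box CANNTG, the motif bound by myogenic regulators such as Myod1 and Myog.
Aspn, chr13:49544193-49544442, plus strand: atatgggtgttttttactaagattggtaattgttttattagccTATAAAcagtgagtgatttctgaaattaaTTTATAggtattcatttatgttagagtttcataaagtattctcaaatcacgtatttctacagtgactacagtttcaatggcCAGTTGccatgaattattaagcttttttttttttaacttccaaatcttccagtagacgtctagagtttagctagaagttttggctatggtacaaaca
Omd, chr13:49582212-49582461, plus strand: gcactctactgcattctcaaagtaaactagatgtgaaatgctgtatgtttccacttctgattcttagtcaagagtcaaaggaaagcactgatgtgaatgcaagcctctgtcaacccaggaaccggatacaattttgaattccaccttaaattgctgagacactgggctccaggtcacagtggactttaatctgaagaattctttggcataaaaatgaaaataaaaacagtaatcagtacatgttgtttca
Ogn, chr13:49607765-49608014, plus strand: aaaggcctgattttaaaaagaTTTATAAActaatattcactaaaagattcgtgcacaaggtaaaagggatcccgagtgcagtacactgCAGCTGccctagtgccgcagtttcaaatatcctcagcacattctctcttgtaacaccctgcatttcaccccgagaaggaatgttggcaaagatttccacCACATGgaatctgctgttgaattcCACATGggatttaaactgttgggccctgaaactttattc
Prelp, chr1:133921402-133921651, minus strand: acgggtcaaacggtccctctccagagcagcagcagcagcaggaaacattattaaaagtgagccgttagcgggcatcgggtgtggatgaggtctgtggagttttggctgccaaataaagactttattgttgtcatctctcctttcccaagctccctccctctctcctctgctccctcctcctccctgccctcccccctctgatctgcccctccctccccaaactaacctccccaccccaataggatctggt

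TATAAA was found at 2 places each before Aspn and Ogn, where those of Ogn overlap on opposite strands, and in 12.4% of 32851 mouse promoters of the same length. The E-box was found 3 times before Ogn, once each before Aspn, Bgn and Fmod, and in 66.2% of all promoters. Omd and Prelp held neither motif. The window of Aspn had 30.0% G and C, that of Omd 38.4% and that of Ogn 42.0%, each under the median of 52.4% of all promoters, whereas Prelp had 55.6% and Bgn 64.4%. The letters GGAATG, bound by TEAD factors, occurred before Ogn alone of the 6 genes (12.6% of all promoters), and the MEF2 core CTATTTATA before none of them (0.387% of all promoters). The Prelp window lies within the span listed for the gene. These matches describe the sequence and were not tested for use.

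Control C2C12 cells held far more mRNA of this family than control pMb, and most of it came from Ogn and Bgn. Levels of different genes are compared as RPKM, which is CPM per kilobase of exon. Ogn had a level of 507 and 1660 RPKM in the control C2C12 replicates 1 and 2, and Bgn 186 and 230 RPKM. Together both genes took between 97.2% and 98.3% of the counts of the family in C2C12 cells. In control replicate 2, Ogn was the gene with rank 5 of 42391 by raw count, with 0.431% of all counted reads.

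The other genes were well below these levels in control C2C12 cells. The level of Prelp was 8.95 and 21.2 RPKM, that of Omd 4.66 and 17.5, that of Aspn 3.77 and 12.6, and that of Fmod 2.22 and 4.34 RPKM. Dcn had 0.0859 and 0.466 RPKM, and Lum had 0 counts. The order was the same within each control replicate. Across the replicates, the ranges of Prelp and Omd, of Omd and Aspn, and of Aspn and Fmod overlapped. The differences between these neighbours were not tested. Ogn and Bgn, Bgn and Prelp, and Fmod and Dcn did not overlap. With the longest transcript in place of the union of exons, Bgn had 425 and 525 RPKM, overlapping the range of Ogn.

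**Figure D1:**
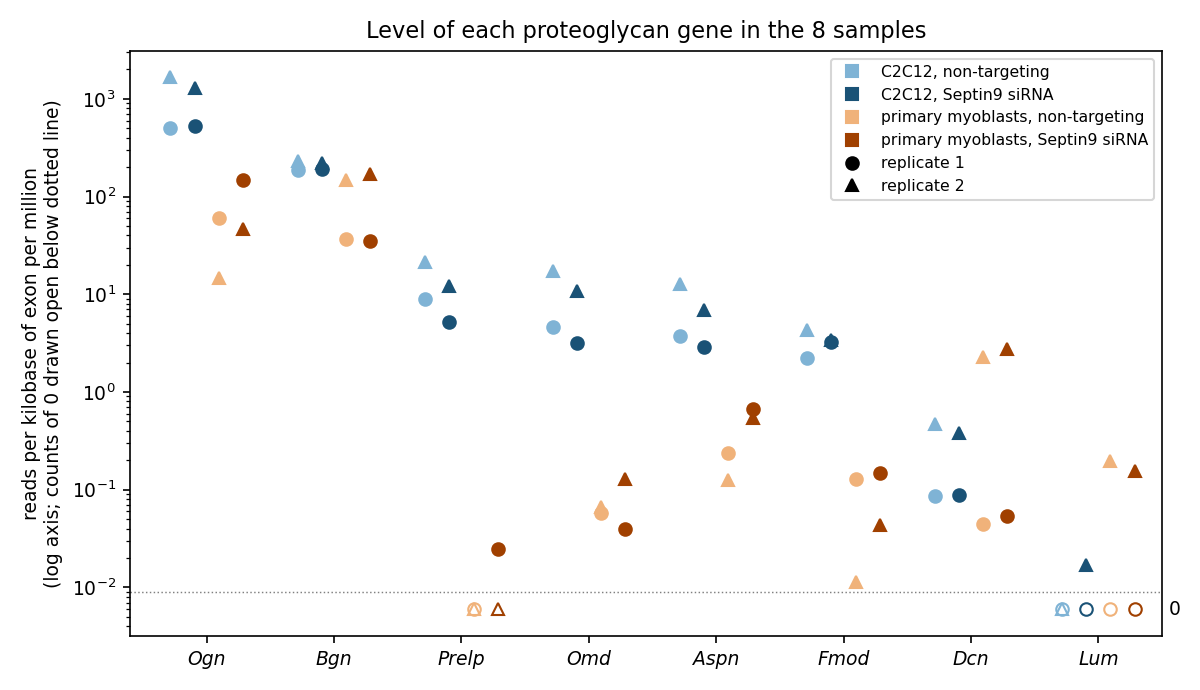
Level of each gene in RPKM (log axis) in all 8 samples, with circles for replicate 1 and triangles for replicate 2 and open symbols for samples with 0 counts. Ogn and Bgn lie at the top in both cell types, and Prelp, Omd, Aspn and Fmod are high in C2C12 cells and below 1 in pMb.

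In control pMb, Bgn had 36.5 and 146 RPKM and Ogn 60.3 and 14.7 RPKM in replicates 1 and 2. The order of this most abundant pair thus differed between the replicates, but it depended on the exon length used. With the longest transcript in place of the union of exons, Bgn had 83.5 and 335 RPKM, above Ogn in both replicates. Dcn followed with 0.0442 and 2.29 RPKM. Aspn had 0.237 and 0.126 RPKM, Omd 0.0573 and 0.0661 RPKM, and Fmod 0.130 and 0.0112 RPKM. These rest on 13 and 8 raw counts of Aspn, 3 and 4 of Omd, and 10 and 1 of Fmod. Lum had 0 and 13 counts, and Prelp had 0 in both controls, which allows up to 0.129 and 0.112 CPM (the level of 3 counts). The ranges of Dcn and Aspn overlapped, as did those of Aspn and Fmod and of Fmod and Omd.

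In control C2C12 cells the levels of 4 of the 6 genes tested besides Aspn exceeded those of control pMb, and 0 were lower. Over all 17103 genes tested, 33.3% differed in either direction and 15.8% were higher in C2C12 cells, by edgeR's quasi-likelihood test with a Benjamini-Hochberg adjusted p under 0.05 and a change of at least 1.5-fold. These criteria are used for all counts of genes below. Prelp, Omd and Fmod passed the filter on low counts only through the C2C12 samples. A lower level in C2C12 cells could therefore hardly have been called for them. Lum, which had counts in the pMb controls alone, was not tested.

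Omd, which encodes a keratan sulfate proteoglycan, had 10.5 and 39.3 CPM in control C2C12 cells against 0.129 and 0.149 in control pMb. The log2 difference was 7.42 (SE 0.93, adjusted p = 0.00848, edgeR). Prelp had 32.4 and 76.7 CPM in control C2C12 cells and 0 counts in control pMb, at least 476-fold higher when 3 counts are allowed in each pMb control (adjusted p = 0.00686, edgeR). The samples of the cell types did not overlap for either gene.

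Aspn had 8.88 and 29.8 CPM in control C2C12 cells and 0.558 and 0.297 CPM in control pMb. This difference is 5.49 on the log2 scale and is given with no test, since the same control samples enter the ratios for which Aspn was chosen. Fmod had 7.33 and 14.3 CPM against 0.430 and 0.0372, a log2 difference of 5.55 (SE 0.91, adjusted p = 0.0140, edgeR). For Ogn, 1302 and 4260 CPM stood against 155 and 37.8, a log2 difference of 4.84 (SE 0.98, adjusted p = 0.0222, edgeR). In each of these genes every C2C12 control lay above every pMb control. Fmod and Ogn did not pass without C2C12 control replicate 1 (adjusted p = 0.0619 and 0.0600, edgeR) or replicate 2 (adjusted p = 0.0979 and 0.105), in fits in which the pMb controls alone give the spread.

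Bgn and Dcn did not pass the test between the controls. Bgn had 1134 and 1401 CPM in C2C12 cells against 223 and 893 in pMb (log2 difference 1.18, SE 0.65, adjusted p = 0.213, edgeR). Without pMb control replicate 2, this log2 difference was 2.51 and passed (adjusted p = 0.00420, edgeR), with the spread taken from the C2C12 controls alone. Dcn had 0.501 and 2.72 CPM in C2C12 cells and 0.258 and 13.3 CPM in pMb (log2 difference -2.07, SE 1.65, adjusted p = 0.369, edgeR), and without the same sample its difference turned to 2.63. Lum, with 13 counts in control pMb and 0 in control C2C12 cells, was too low to test. With 3 counts allowed in each C2C12 control it was at least 2.12-fold higher in pMb, and all 13 counts came from replicate 2.

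After Septin9 depletion in C2C12 cells, Prelp and Omd fell in both replicate pairs, and 0 of the genes tested rose. These are 2 of the 6 genes tested besides Aspn, against 1.57% of all 15814 genes that changed, with 0.828% that rose and 0.740% that fell. The median over these 6 genes was -0.19 on the log2 scale, beside -0.00079 over all genes tested. Lum, with 1 count in 4 samples, was not tested.

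Prelp, whose protein carries an unusual arginine- and proline-rich end that binds heparan sulfate, had 32.4 and 76.7 CPM in control against 18.6 and 43.5 CPM in Septin9-depleted C2C12 cells. Within pairs it stood at 57.5% and 56.7% of control. The log2 fold change was -0.81 (SE 0.07, adjusted p = 1.08e-06, edgeR with the replicate pair as a block). Replicates 1 and 2 differed more than the siRNAs did, so the depleted replicate 2 lay above the control of replicate 1, and the fall shows within the pairs.

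Omd had 10.5 and 39.3 CPM in control against 7.18 and 24.5 CPM in Septin9-depleted C2C12 cells, or 68.6% and 62.3% of control within pairs. Its log2 fold change was -0.63 (SE 0.10, adjusted p = 0.000373, edgeR). In a fit of all 8 samples Omd no longer passed (adjusted p = 0.0702, edgeR), nor did it with either pair left out (log2 fold change -0.55 and -0.68), where the spread comes from the pMb samples alone. The groups of Omd overlapped across replicates, as those of Prelp did.

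The other genes of the family did not pass in C2C12 cells. Ogn had 1302 and 4260 CPM in control against 1348 and 3307 CPM in Septin9-depleted samples (log2 fold change -0.16, SE 0.10, adjusted p = 0.406, edgeR). Bgn had 1134 and 1401 against 1168 and 1339 CPM, a log2 fold change of -0.02 (SE 0.08). The pairs of both genes pointed in opposite directions. Fmod was higher in pair 1, with 7.33 against 10.8 CPM, and lower in pair 2, with 14.3 against 11.3 CPM, for a log2 fold change of 0.05 (SE 0.16). Dcn had 0.501 and 2.72 CPM in control against 0.513 and 2.21 CPM after depletion (log2 fold change -0.22, SE 0.31). The adjusted p values of Bgn, Fmod and Dcn were 0.942, 0.910 and 0.789 in edgeR.

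Aspn, the gene of the choice, had 195 and 809 raw counts in control against 145 and 386 in Septin9-depleted C2C12 cells. Its levels were 8.88 and 29.8 CPM against 6.76 and 16.1 CPM, which is 76.2% and 54.2% of control. The fitted log2 fold change was -0.70, between those of Prelp and Omd.

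In primary myoblasts, Ogn rose after Septin9 depletion in both pairs, and 0 of the genes tested fell. Ogn is 1 of 4 genes tested besides Aspn, against 3.17% of 17117 genes that changed, with 2.87% that rose and 0.298% that fell. With library size alone in place of TMM, Ogn rose as well, and 1.20% of all genes changed, 165 upward and 41 downward against 491 and 51 with TMM. The share was 1.52% with RLE size factors and 1.34% in DESeq2. The median over the 4 genes was 0.39 on the log2 scale, beside 0.01 over all genes tested. Lum, Omd and Prelp were not tested, with at most 13 raw counts in any pMb sample.

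Ogn had 155 and 37.8 CPM in control against 378 and 119 CPM in Septin9-depleted pMb. This is 2.45-fold and 3.16-fold of control within the pairs, and the fitted log2 fold change was 1.47 (SE 0.13, adjusted p = 5.04e-06, edgeR). The depleted replicate 2 lay below the control of replicate 1, so the groups overlapped although each pair moved up. Ogn rests on between 1016 and 8451 raw counts in each pMb sample.

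Aspn had 13 and 8 raw counts in control pMb and 35 and 27 in Septin9-depleted pMb. The levels were 0.558 and 0.297 CPM against 1.57 and 1.29 CPM, or 2.81-fold and 4.33-fold of control, with a fitted log2 fold change of 1.75. Both depleted samples lay above both controls, at levels under the lowest C2C12 sample of 6.76 CPM.

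Bgn and Dcn, the most abundant genes of pMb replicate 2 beside Ogn, did not pass. Bgn had 223 and 893 CPM in control against 215 and 1047 CPM after depletion (log2 fold change 0.10, SE 0.14, adjusted p = 0.801, edgeR). Dcn had 0.258 and 13.3 CPM in control against 0.313 and 16.1 CPM after depletion (log2 fold change 0.29, SE 0.22, adjusted p = 0.559, edgeR). Fmod, on 1 to 11 counts a sample, had a log2 fold change of 0.49 (SE 0.67, adjusted p = 0.792, edgeR). Omd had 3 and 4 counts in control and 2 and 6 after depletion, and Prelp had 2 counts in 1 depleted sample and 0 in the other three.

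**Figure D2:**
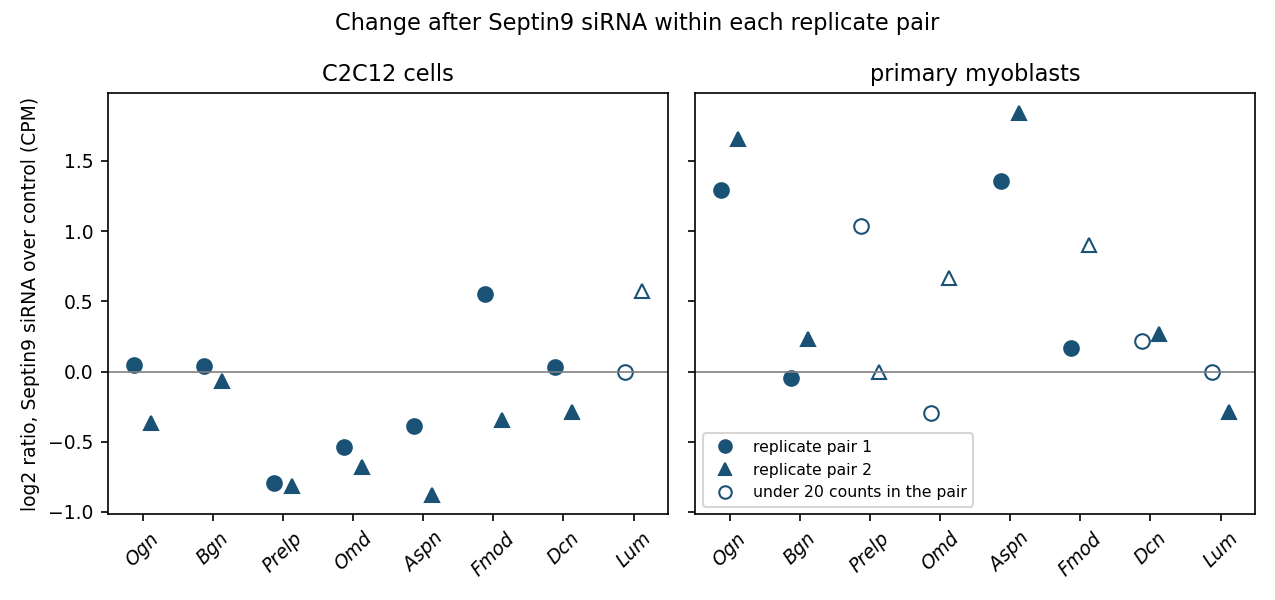
Log2 ratio of CPM, Septin9 siRNA over control, within replicate pair 1 (circles) and pair 2 (triangles) for each gene, with open symbols for pairs with under 20 counts. In C2C12 cells Prelp, Omd and Aspn lie below 0 in both pairs, and in pMb Ogn and Aspn lie above 1.2 in both pairs.

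The replicate pair was part of the test because the study states 2 independent experiments and removes their batch effect. The experiments also differed strongly. Without the block, edgeR called 0 of 15814 genes in C2C12 cells and 0 of 17117 in pMb, with 372 and 378 at an unadjusted p under 0.05, none of them a proteoglycan tested here. The log2 fold changes were then -0.65 (SE 0.81) for Omd, -0.81 (SE 0.56) for Prelp and 1.36 (SE 0.89) for Ogn. DESeq2 with the block called 2 of the proteoglycans in C2C12 cells and 1 in pMb, against 0.626% of all 15814 and 1.34% of all 17117 genes.

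Whether the effect of depletion differed between the cell types was tested in 1 fit of all 8 samples. By edgeR 0 of 17918 genes passed (0% of those tested), the proteoglycans included, of which 2 had an unadjusted p under 0.05. Ogn was closest, with a difference of 1.63 on the log2 scale (pMb minus C2C12, SE 0.19, unadjusted p = 8.50e-06, adjusted p = 0.0560, edgeR). It passed in DESeq2 (adjusted p = 3.86e-16), which called 1 of the proteoglycans, and in edgeR with no filter on low counts. How many of all genes passed in these fits is not given here, so they do not show that Ogn stood out. With a pair left out the difference lay between 1.42 and 1.84, in fits that keep 1 residual degree of freedom and take the spread from the other cell type. The other gene with a low unadjusted p, Prelp, rests on 2 counts in pMb. Omd had a difference of 1.06 (SE 0.64, adjusted p = 0.727, edgeR), Dcn 0.49 (SE 0.32), Fmod 0.39 (SE 0.73) and Bgn 0.10 (SE 0.15). For Aspn, chosen for this contrast, the fitted difference was 2.42.

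The genes of the chromosome 13 cluster did not move as a block in C2C12 cells, and in pMb Omd and Ecm2 had too few counts to tell. In C2C12 cells Omd fell, with log2 ratios of -0.54 and -0.68 in the pairs, while Ecm2, a family member upstream of Aspn, had 0.07 and -0.04 and Ogn 0.05 and -0.37. The fitted log2 fold change of Ecm2 was 0.0027 (SE 0.14, adjusted p = 0.996, edgeR). Cenpp, which spans the cluster, had -0.28 (SE 0.12, adjusted p = 0.197, edgeR) in C2C12 cells and 0.12 (SE 0.19, adjusted p = 0.814) in pMb. Nol8, the next gene after Ogn, had 0.00074 (SE 0.09) and 0.01 (SE 0.11). In pMb, Ecm2 had 8 and 9 counts in control and 9 and 11 after depletion, and Omd had 3 and 4 against 2 and 6. Of the 6 genes drawn for the cluster, Aspn and Ogn alone had log2 ratios above 1 in both pMb pairs. Aspn was chosen for its rise, and the ratios of Omd and Ecm2 rest on too few counts to be set against those of Ogn. Near Prelp, Optc, which encodes the proteoglycan opticin, had a log2 fold change of -0.48 in C2C12 cells (SE 0.24, adjusted p = 0.298, edgeR).

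**Figure D3:**
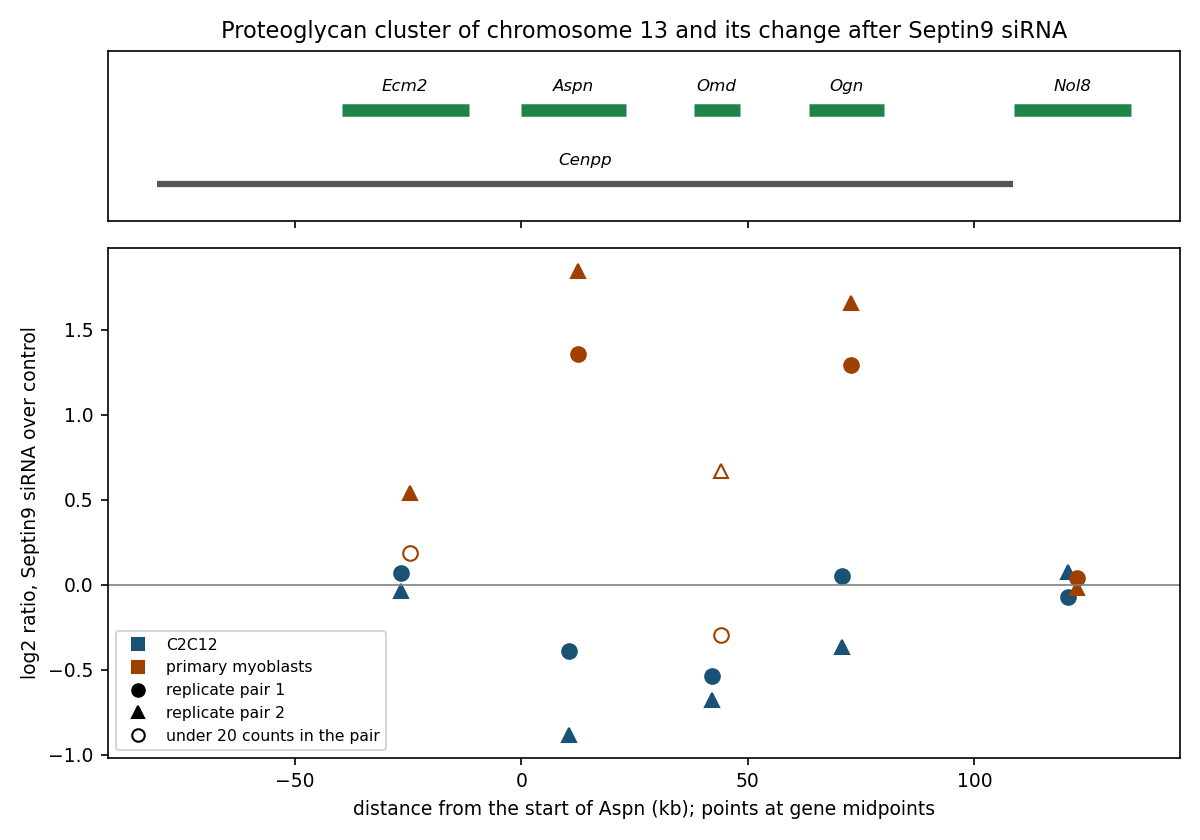
Upper panel, position of the 4 family genes and of Cenpp and Nol8 as distance in kb from the start of Aspn; lower panel, log2 ratio of CPM, Septin9 siRNA over control, in each replicate pair. In pMb, Aspn and Ogn lie above 1.2, and in C2C12 cells Aspn and Omd lie below 0 while Ecm2 and Nol8 lie near 0.

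The levels of most of the family differed more between the experiments than between the siRNAs. In C2C12 cells 5 of 7 genes were higher in replicate 2 than in replicate 1 and 0 were lower, against 11.3% of all genes tested that changed, with 5.20% higher and 6.10% lower. Dcn was 2.24 higher on the log2 scale (SE 0.34, adjusted p = 3.40e-05, edgeR), Omd 1.82 (SE 0.10, adjusted p = 2.45e-10), Aspn 1.49 (SE 0.12, adjusted p = 1.57e-08), Ogn 1.47 (SE 0.10, adjusted p = 1.84e-09) and Prelp 1.20 (SE 0.07, adjusted p = 6.78e-10). Fmod with 0.48 and Bgn with 0.22 passed the p threshold but stayed under 1.5-fold. In the cluster on chromosome 13, Ecm2 was 1.19 higher as well (SE 0.14, adjusted p = 1.54e-06, edgeR), while Cenpp differed by -0.01 (SE 0.12).

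In pMb the family split between the experiments. Dcn and Bgn were higher in replicate 2, and Ogn and Fmod were lower, which makes 4 of 5 genes tested against 15.9% of all genes, of which 8.05% were higher and 7.81% lower. Dcn passed the filter on low counts only through replicate 2, and Fmod only through replicate 1. A change in the opposite direction could therefore hardly have been called for Dcn or Fmod. Dcn had 6 raw counts in control and 7 in Septin9-depleted pMb of replicate 1, and 359 and 337 in replicate 2. Its log2 difference was 5.69, or 51.5-fold (SE 0.27, adjusted p = 2.32e-11, edgeR). Bgn went from 5183 and 4811 raw counts to 24007 and 21954, a log2 difference of 2.17 (SE 0.14, adjusted p = 1.89e-09, edgeR). Ogn went from 3599 and 8451 raw counts to 1016 and 2501, a log2 difference of -1.82 (SE 0.13, adjusted p = 4.62e-09, edgeR). Samples of the experiments did not overlap for Dcn, Bgn or Ogn. Fmod had 10 and 11 counts in replicate 1 and 1 and 3 in replicate 2 (log2 difference -2.35, adjusted p = 0.0254, edgeR), and this did not pass in DESeq2 (adjusted p = 0.412). Aspn differed by -0.45 (SE 0.41, adjusted p = 0.487, edgeR).

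Bgn took 94.5% of the family's counts in control pMb of replicate 2 and 58.8% in replicate 1, and Ogn 4.00% and 40.8%. The mRNA of the family in pMb was thus mostly Bgn in one experiment and a mixture of Bgn and Ogn in the other.

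**Figure D4:**
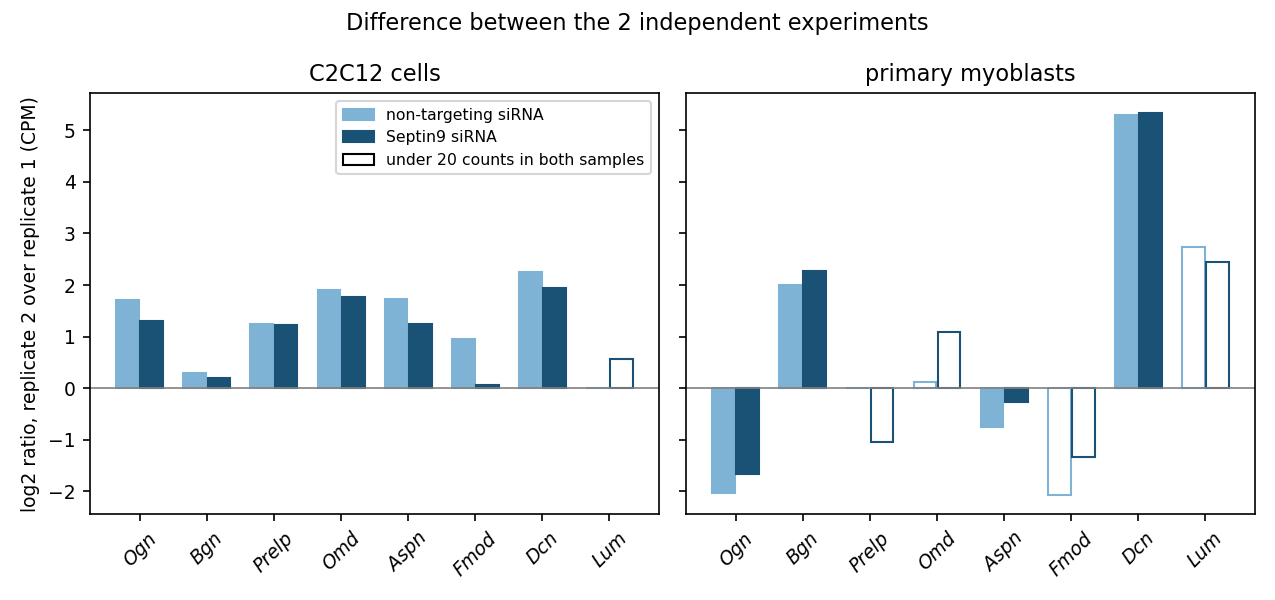
Log2 ratio of CPM, replicate 2 over replicate 1, in control (light bars) and Septin9-depleted samples (dark bars) of each cell type, with open bars where both samples together had under 20 counts. In C2C12 cells the bars of the tested genes point up, and in pMb those of Dcn and Bgn point up and those of Ogn point down in both conditions.

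Markers of other cells and of differentiation moved with the experiments. In pMb, 7 of the 8 fibroblast markers tested were higher in replicate 2 than in replicate 1, against 8.05% of all genes tested. Their median log2 difference was 3.15. The whole list of 14 summed to 216 CPM in control and 232 CPM in Septin9-depleted pMb of replicate 1. In replicate 2 the sums were 307 and 350 CPM. Most of each sum was Gsn, with 201 and 218 CPM in replicate 1 and 202 and 234 CPM in replicate 2. Scara5 and Tcf21 were at 0 in all 4 samples. Dpp4 and Clec3b, on at most 5 counts a sample, were not higher in replicate 2. Pdgfra, a receptor that marks fibroblasts of muscle, had 1.03 and 0.896 CPM in replicate 1 and 31.7 and 32.1 CPM in replicate 2. Of 17 fibrillar matrix genes tested, 15 were higher in replicate 2, among them Col1a1, with 6.83 and 4.84 CPM in replicate 1 and 249 and 378 CPM in replicate 2. Dcn, Bgn and Lum were higher in the same samples. In bulk RNA, more cells of a type and more RNA per cell cannot be told apart, and the part of these markers in the levels of Dcn, Bgn and Lum was not tested.

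The differentiation markers, genes switched on as myoblasts become muscle fibres, went the other way in pMb, where 9 of 9 were lower in replicate 2. They summed to 13639 CPM in control and 17013 CPM in Septin9-depleted pMb of replicate 1 and to 3753 and 8763 CPM in replicate 2. In C2C12 cells 8 of 9 were higher in replicate 2, with sums of 106 and 139 CPM in replicate 1 and 203 and 265 CPM in replicate 2. Ogn was higher in replicate 1 of pMb and in replicate 2 of C2C12 cells, the replicates with the higher sums. This match was not particular to Ogn or to these markers. In C2C12 cells most of the family was higher in replicate 2, as were 4 of 8 fibroblast markers and 3 of 6 myoblast markers tested, with 0 lower. In pMb 3 of 6 myoblast markers were lower in replicate 2 and 0 were higher. The part of any of these markers in the level of Ogn was not tested.

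**Figure D5:**
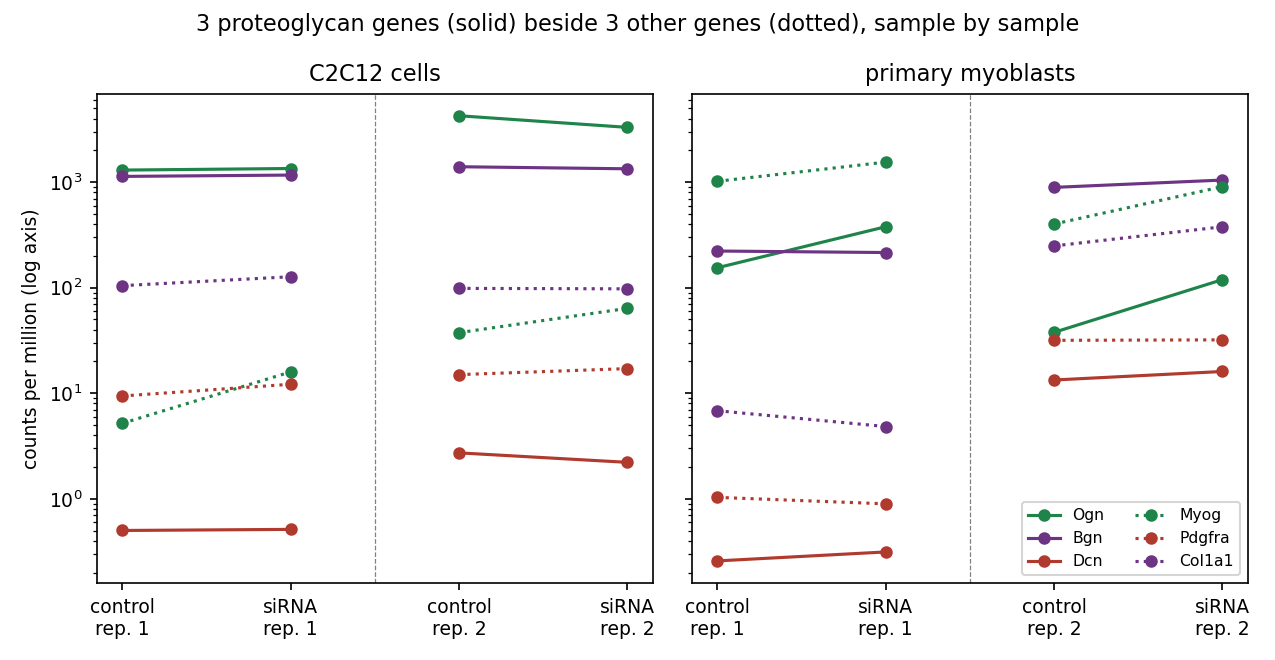
CPM (log axis) of Ogn, Bgn and Dcn (solid lines) beside Myog, Pdgfra and Col1a1 (dotted lines) in the 4 samples of each cell type, with lines joining the control and Septin9-depleted sample of a replicate. In pMb, Dcn, Bgn, Pdgfra and Col1a1 are higher in replicate 2, and Ogn and Myog are higher in replicate 1.

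With depletion, 5 of 9 differentiation markers rose in C2C12 cells and 7 of 9 in pMb, and 0 fell in either. Myog rose by 1.03 on the log2 scale in C2C12 cells (SE 0.12, adjusted p = 2.28e-05, edgeR) and by 0.89 in pMb (SE 0.16, adjusted p = 0.00266, edgeR). Within each pMb pair, Ogn and Aspn were higher in the depleted sample, as was the sum of these markers. Within each C2C12 pair, Prelp, Omd and Aspn were lower in the depleted sample, where the sum was higher. Aspn was chosen for these directions. Between the C2C12 experiments, however, Prelp, Omd, Aspn and the sum were all higher in replicate 2. Among fibroblast markers, 1 of 8 fell in C2C12 cells (Scara5, -0.83) and 1 of 8 rose in pMb (Thy1, 0.80), and of the tendon markers, 0 of 4 changed in C2C12 cells and 2 of 4 rose in pMb (Cilp2, 1.41, and Scx, 0.73). In pMb, 1 of 6 myoblast markers fell (Myf5, -0.78) and 1 of 3 mural cell markers rose (Abcc9, 0.97). The 5 mural cell markers summed to between 74.1 and 124 CPM in pMb and to between 24.5 and 42.2 CPM in C2C12 cells, with Kcnj8 at 0 in 3 of the 4 pMb samples. Of the myoblast and mural cell markers tested in C2C12 cells, and of the endothelial, leukocyte, glial, and cartilage and bone markers tested in either cell type, 0 passed. All 6 myoblast markers nevertheless had a positive log2 fold change in C2C12 cells, with a median of 0.44 beside -0.00079 over all genes tested. Of these, 4 had an unadjusted p under 0.05 in edgeR. Only 1 mural cell marker and 0 endothelial markers could be tested in C2C12 cells. The part of any of these markers in the changes of the proteoglycans was not tested.

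Genes that work with this family changed at 1.39% in C2C12 cells and at 6.49% in pMb, against 1.57% and 3.17% of all genes tested. Of 87 genes in lists of further family genes, enzymes that build their glycosaminoglycan chains, collagens and other fibril partners, and the ligands, receptors and proteases of these proteins, 72 were tested in C2C12 cells, where 0 rose and 1 fell. Col6a3, a chain of the microfibrillar collagen VI that decorin and biglycan bind, had 297 and 301 CPM in control against 187 and 209 CPM in Septin9-depleted C2C12 cells. The depleted samples lay below both controls, with a log2 fold change of -0.61 (SE 0.07, adjusted p = 1.59e-05, edgeR).

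In pMb, 77 of the 87 genes were tested, of which 3 rose and 2 fell. Tgfb3, a TGF-beta ligand, had 129 and 54.0 CPM in control against 185 and 113 CPM after depletion (log2 fold change 0.79, SE 0.13, adjusted p = 0.00147, edgeR). Mstn, which encodes myostatin, the inhibitor of muscle growth that decorin can bind, had 63.8 and 6.06 CPM in control against 86.5 and 13.7 CPM after depletion (log2 fold change 0.73, SE 0.15, adjusted p = 0.00674, edgeR). In both genes each pair moved up, but the groups overlapped across replicates. Chst13, a sulfotransferase that acts on chondroitin and dermatan chains, rose by 0.87 on the log2 scale (SE 0.24, adjusted p = 0.0391, edgeR). Tnc, the matrix protein tenascin-C, fell by 0.63 (SE 0.15, adjusted p = 0.0201, edgeR), with 287 and 1344 CPM in control against 155 and 1036 CPM after depletion. Mmp13, a collagenase, fell by 2.23 (SE 0.47, adjusted p = 0.00890, edgeR), from 114 and 43 raw counts to 8 and 19. With the size factors of DESeq2 in place of TMM, edgeR called 1 gene of these lists instead of 5, so the count depends on the scaling.

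By group, 0 of 5 further family genes, 0 of 30 chain enzymes, 1 of 17 fibril partners and 0 of 20 ligands, receptors and proteases changed in C2C12 cells. In pMb the numbers were 0 of 3, 1 of 33, 1 of 17 and 3 of 24. The median over these lists was a log2 fold change of -0.04 in C2C12 cells and 0.02 in pMb, beside -0.00079 and 0.01 over all genes tested.

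Between the controls, 32 of 77 of these genes were higher in C2C12 cells and 8 were lower, against 15.8% and 17.5% of all genes tested. Of the further family genes, 3 of 5 were higher, namely Ecm2 (log2 difference 4.79, SE 0.59, adjusted p = 0.00823, edgeR), Podnl1 (3.60, SE 0.18, adjusted p = 0.00225) and Optc, which had 49 and 101 counts in control C2C12 cells and 0 in control pMb. Ecm2 and Optc passed the filter on low counts only through the C2C12 samples, so a lower level there could hardly have been called. Kera and Epyc, the genes of keratocan and epiphycan, had 0 counts in all 8 samples.

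The genes whose levels ran most like those of Aspn over the 8 samples were sought among 15072 others tested in both cell types, by the mean absolute difference in log2 CPM after centring within each cell type. The 5 nearest were Tm6sf1 (0.21), Tspan32 (0.25), Gpr20 (0.30), Plekha6_1 (0.31), which is a further copy of a listed gene, and Rora (0.32). Tspan32, for instance, had log2 ratios of -0.68 and -0.83 in the C2C12 pairs and 1.28 and 0.97 in the pMb pairs, on 6 to 40 counts a sample. Rora, an orphan nuclear receptor, had 0.12 and 0.22 in C2C12 cells and 0.90 and 1.38 in pMb. Within the family, Ogn had rank 94, Fmod 406, Bgn 14035 and Dcn 15042. Lum, Omd and Prelp had no rank, since they were not tested in pMb. The distances include the changes for which Aspn was chosen, so they are a description and not a test. The mean absolute difference of Ogn from Aspn was 0.24 over the C2C12 samples and 0.67 over the pMb samples, and that of Dcn 0.31 and 2.91.

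In the deposited values from which the batch effect had been removed, the C2C12 controls were close between the experiments. Control replicate 2 stood at 0.996-fold to 1.36-fold of control replicate 1 for the 7 genes with counts. In pMb this ratio was 1.04 for Dcn, 0.903 for Bgn and 0.874 for Ogn, but 0.744 for Aspn, 0.536 for Omd and 0.179 for Fmod, genes with at most 13 raw counts in a control, and Lum stood at 0 and 11.4. The values of Dcn in pMb were 42.3 and 43.9 in control against 51.7 and 53.0 in Septin9-depleted samples (normalized counts), where the raw counts were 6, 359, 7 and 337. Ogn had 1926 and 1683 in control against 4559 and 5184 after depletion, so its groups no longer overlapped. Prelp in C2C12 cells had 1176 and 1172 in control against 666 and 669 after depletion. The corrected levels of Dcn in pMb lie between those of the experiments, near neither of them.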

How the data were processed

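Poly(A) RNA was sequenced from 8 samples, 2 in each of 4 groups. Per the labels and the study's methods, the authors mapped reads to GRCm38.p6 with STAR 2.7.2, counted them per gene with featureCounts 2.0.1 and deposited these raw counts without normalization. The authors also deposited a normalized signal for each cell type, made from counts adjusted with ComBat-Seq for the batch effect of independent experiments and divided by size factors of DESeq2 1.40.1. All of these values were whole multiples of 1 read (100% within 0.01 of a whole number), and the recovered counts served as an alternative. The 16 broken lines of the raw table were left out, which leaves 42391 entries. Every column of values belonged to a sample.

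Raw counts were analysed with edgeR 4.0.16 in R 4.3.3 (filterByExpr, TMM, quasi-likelihood test, Benjamini-Hochberg adjustment over all genes tested), within each cell type, with the replicate number as a block. A gene was called when its adjusted p was under 0.05 and it changed at least 1.5-fold. Samples were paired by the numbers in their labels and the 2 independent experiments that the study states. The deviations of same-numbered samples correlated across genes at 0.678 for C2C12 cells and at 0.819 for primary myoblasts. Cell types were compared without a block, since their numbers are not said to share an experiment (correlation -0.144). Between the controls, p-values measure the spread between 2 samples a group. In the fits with a block they measure how far the replicate pairs disagree in their change, with a spread shared in part across genes. The knockdown fits keep as few residual degrees of freedom as those with a pair left out.

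CPM were scaled by TMM over all 8 samples, log2 ratios used a prior count of 2, and RPKM used the union of exons of the mouse GENCODE release M21. Positions and promoters came from RefSeq, GRCm38.p6. A floor of 3 counts in each library covers counting error only. The fits were tested on simulated data. Alternatives were library size alone, size factors by RLE, a minimum of 10 counts in every sample, no filter, DESeq2 1.42.0, the batch-corrected counts, no fold change threshold, no replicate block, all 8 samples in one fit, left-out replicates and, for RPKM, the longest transcript. Leaving out samples in the comparison of replicates was an alternative added with the data in view.

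The 8 genes and the lists were chosen with earlier results of these data known. Genes named are these 8, Septin9, genes next to or overlapping them, up to 4 called genes of each list in each knockdown comparison and the 5 most like Aspn. Pdgfra, Col1a1 and the family genes named between controls were chosen after their values were seen. Python 3.11.15, pandas 2.3.3 and matplotlib 3.10.9 were used for sequences and figures.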

Additional observations from a re-analysis of the deposited data

Results flagged for a closer look

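Aspn stood out because every pair of one cell type moved one way and every pair of the other the opposite way. Its log2 ratios, Septin9 siRNA over control, were -0.39 and -0.88 in the C2C12 pairs and 1.36 and 1.84 in the pMb pairs. The gene was chosen for this pattern, the difference was not tested, and the pMb ratios rest on 8 to 35 raw counts a sample.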

How the results depend on the processing

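Without the replicate block, 0 of the proteoglycans were called in either knockdown, against 2 in C2C12 cells and 1 in pMb with it, and 0 of the pathway genes against 1 and 5. All 8 samples in one fit gave 1 call in C2C12 cells and 0 pathway genes, and leaving out a pair gave 1 to 1. The pathway count in C2C12 cells was 9 with no fold change threshold, 2 with library size alone, 2 with no filter and 0 to 2 without a pair. In pMb it was 8 with no fold change threshold, 1 with RLE size factors or library size alone, 3 in DESeq2 and 7 to 9 without a pair. The difference between the cell types had 1 call with no filter, in DESeq2 and without any pair (1 to 1). Between the controls, 1 of 4 calls was left with at least 10 counts in every sample and 2 to 5 without a sample, and between the pMb replicates 2 of 4 with at least 10 counts. With library size alone the log2 fold change of Bgn in C2C12 cells turned to 0.0044. Leaving out a pair moved the log2 fold changes in C2C12 cells from -0.30 to 0.033 for Dcn, from -0.064 to 0.041 for Bgn, from -0.35 to 0.55 for Fmod and from -0.36 to 0.048 for Ogn, and in pMb from -0.052 to 0.24 for Bgn. The difference between cell types then ran from -0.026 to 0.26 for Bgn and from -0.076 to 1.76 for Fmod, and without a sample Dcn between controls ran from -3.75 to 2.63. None of these had passed. Fits without a pair or a control keep 1 residual degree of freedom, so the lone samples are assumed to vary like those of the other cell type. Of 362 alternative log2 fold changes, 327 kept their direction and side of the thresholds. Over all genes, pMb gave 542 calls, 260 with RLE size factors, 206 with library size alone and 230 in DESeq2, and C2C12 cells gave 248, 99 in DESeq2 and 83 in the fit of all samples. The cause was not tested. The level of Bgn rose to 475 RPKM in control C2C12 cells with the longest transcript. Genes with few counts in pMb (Aspn, Fmod, Omd, Prelp, Lum) are limited by depth.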
